A study of Mus musculus with 6 samples.

Results

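The SLC25 family comprises the carrier proteins that move nucleotides, phosphate, acids, amino acids, cofactors and iron across the inner mitochondrial membrane. Its mRNAs were examined in mouse gastrocnemius, a calf muscle of mostly fast fibres. Members were the genes of the expression table whose symbol begins with Slc25a, leaving out the 1 pseudogene Slc25a5-ps, which gave 47 of 57010 genes. That rule reads the symbol alone, while the family itself was picked with earlier results of these data known. RNA was sequenced from 6 samples of muscle of NSG mice (NOD/SCID/IL2Rγ-null, which lack mature lymphocytes). All of the mice carried a subcutaneous flank tumour grown from MDA-MB-231/Rab27a KD cells, that is, human triple-negative breast cancer cells in which Rab27a, a gene of vesicle secretion, was knocked down. The control group (n = 3) had tumours that were not treated. In the radiotherapy group (n = 3) the tumour, at about 800 mm3, received a single 10 Gy dose of radiation, and the gastrocnemius of the other leg was taken 3 days later, so the muscle itself was not the target. The sources used here give neither age nor sex of the mice nor the number of knockdown clones, and no group had a tumour without the knockdown. Whether each sample was a mouse of its own is not stated in the labels. The p-values therefore measure only the spread between these samples, which may be technical.

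A carrier of this family is a small membrane protein that typically exchanges one solute for another across a membrane otherwise closed to them. In working muscle the heaviest traffic is that of energy. ADP and phosphate enter the matrix, ATP leaves, acylcarnitines bring in fatty acids, and the malate-aspartate shuttle carries reducing power from glycolysis. Other members supply the matrix with NAD+, coenzyme A, glutathione or iron.

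Expression was given as TPM, a share of all transcripts corrected for transcript length and summing to 1000000 in each library, so levels of different genes can be compared and sequencing depth is unknown. The fast fibre markers summed to 76054 to 86594 TPM in control and 42729 to 69915 TPM after radiotherapy, as fits the labelled tissue. Of these 6 markers 5 had lower means after radiotherapy. Myh1 went the other way, with means of 406 TPM in control and 577 TPM after radiotherapy. Transcripts of the mitochondrial genome took 8.93 to 13.7% of TPM in control and 15.1 to 22.5% after radiotherapy of a fixed total. Neither the fibre marker sum nor the mitochondrial share overlapped between the groups, and radiotherapy 2 was the extreme library in both. The part of the fibre markers in the SLC25 values was not tested. Differences below are radiotherapy minus control on the log2(TPM + 1) scale, which understates those of low genes. Across the 11375 genes tested (1 TPM or more in at least 3 libraries) the median difference was −0.11, with 67.9% of genes below 0.

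No SLC25 gene changed past the threshold between radiotherapy and control. Of the 47 members 36 were tested, and 0 passed limma at the adjusted threshold of 0.05 (adjusted p over all genes tested, 0.977 to 0.999). Of all genes, 0% passed, higher or lower. At an unadjusted p under 0.05 there were 2 members, Slc25a4 and Slc25a12, or 5.56% of those tested against 3.82% of all genes (0.967% higher and 2.86% lower). Both were lower after radiotherapy. The 3 radiotherapy values lay wholly outside the 3 control values for 3 members, or 8.33% against 9.24% of all genes. Of these, 2 were lower, Slc25a4 among them, where 7.54% of all genes were, and 1, Slc25a36, was higher, where 1.7% were. That count of 3 was 10 without control 1 (27.8% of the members, 20.6% of all genes), 7 without radiotherapy 1 (19.4% and 17.2%) and 14 without radiotherapy 3 (38.9% and 33.1%). It was 3 without control 2, where 17.5% of all genes had no overlap, 4 without control 3 (16.8%) and 4 without radiotherapy 2 (12.3%). The median difference of the members was −0.12, with 24 of 36 below 0, next to −0.11 for all genes. With all 6 libraries, the members' shares were close to those of the whole table.

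**Figure D1:**
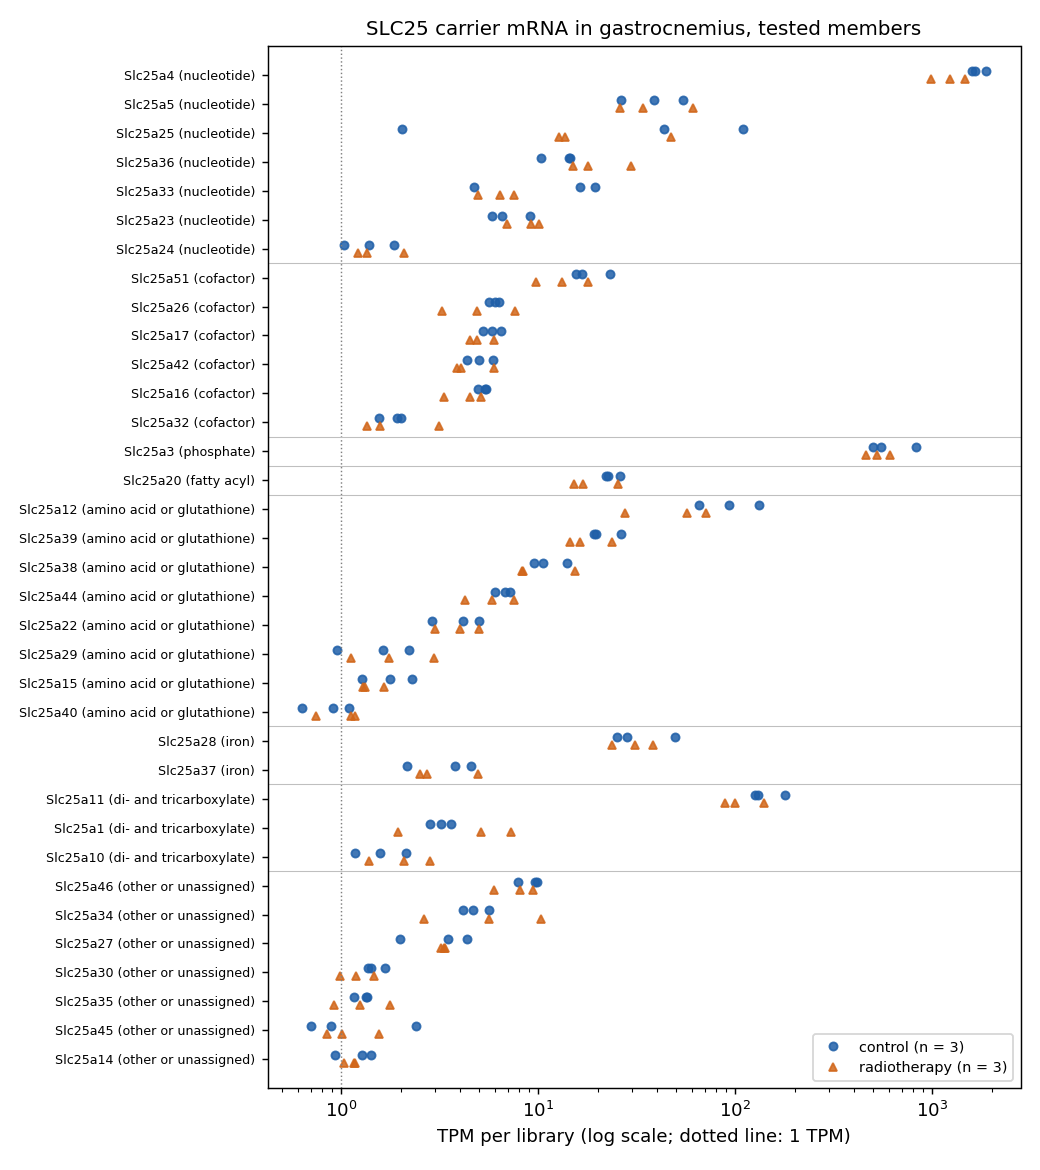
TPM of 35 tested SLC25 genes in every library (log axis), with circles for the 3 control and triangles for the 3 radiotherapy libraries, arranged by substrate group. Levels span from about 1 TPM to 1879 TPM for Slc25a4, and the groups overlap for 33 of the genes drawn.

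**Figure D2:**
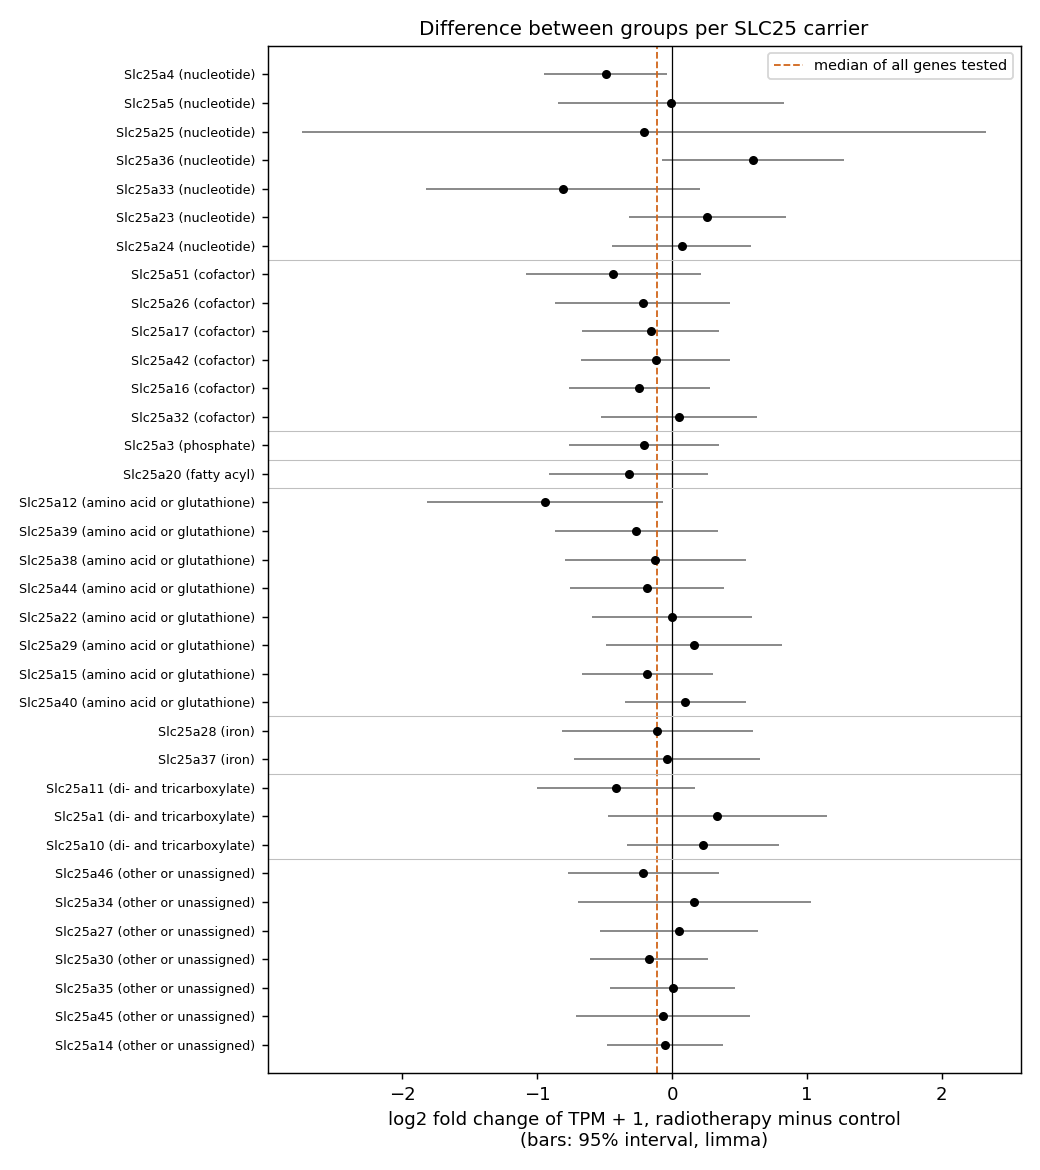
Difference between the groups for 35 tested SLC25 genes on the log2(TPM + 1) scale, with its 95% interval from limma; the dashed line is the median of all genes tested. The intervals of Slc25a4 and Slc25a12 alone leave out 0, before any adjustment for the number of genes.

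The family as a whole made up 0.260, 0.280 and 0.329% of TPM in control 1, 2 and 3 and 0.253, 0.177 and 0.229% in radiotherapy 1, 2 and 3. The radiotherapy libraries lay below the controls in this share of unscaled TPM, and the gap between control 1 and radiotherapy 1 was small. Mitochondrial genome transcripts took more of that total after radiotherapy. The order did not hold under other scalings. The family summed to 2603 TPM in control 1 and 2525 TPM in radiotherapy 1. Median-of-ratios scaling divides these by 1.04 and 0.929, which puts radiotherapy 1 above control 1. Removal of the most abundant and mitochondrial genes multiplies them by 2.09 and 2.45, with the same outcome, so the groups overlapped under both. Most of the family's TPM came from a pair of genes: Slc25a4 and Slc25a3 together held 76.6 to 82.3% of it in every library. Mean levels were at least 100 TPM for 3 members, between 10 and 100 for 10, between 1 and 10 for 22 and under 1 for 12.

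Among the nucleotide carriers, Slc25a4 was the most abundant member. It encodes the ADP/ATP translocase of heart and skeletal muscle (ANT1), which exports ATP in exchange for ADP. Its level was 1598, 1652 and 1879 TPM in control 1, 2 and 3 and 1467, 986 and 1228 TPM in radiotherapy 1, 2 and 3. All radiotherapy libraries were lower than all controls, and radiotherapy 2 was lowest. The means were 1709 ± 149 and 1227 ± 240 TPM (SD, n = 3 each), a difference of −0.49 (SE 0.20, 95% interval −0.95 to −0.03, limma adjusted p = 0.977). The groups overlapped after median-of-ratios scaling, with a difference of −0.35, and after removal of the most abundant and mitochondrial genes, with −0.38, and after quantile normalization, with −0.31. Leaving out control 3 and radiotherapy 2, the extreme libraries, gave −0.28.

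A ratio of 2 genes within a library does not depend on that scaling. Slc25a4 was compared with the summed nuclear subunits of ATP synthase, the enzyme that makes the ATP it exports. Slc25a4 stood at 0.115, 0.130 and 0.121 of that sum in control 1, 2 and 3 and at 0.103, 0.0694 and 0.105 in radiotherapy 1, 2 and 3. The ratio was lower in all radiotherapy libraries than in any control, and lowest in radiotherapy 2. It was the only ratio computed that did not overlap, and Slc25a4 itself did not overlap in TPM. No share of ratios without overlap over all genes was computed to set beside it. The ratio of Slc25a4 to Slc25a3 overlapped, at 2.28 to 3.21 in control and 2.14 to 2.40 after radiotherapy, and that of Slc25a36 to Slc25a33 overlapped too. The subunits of ATP synthase themselves did not separate the groups: 10 of 15 tested were below 0 with a median of −0.09. None passed limma over all genes tested (0 at an unadjusted p under 0.05). The 1 without overlap, Atp5g2, was lower (background 7.54% for this direction). Atp5b, the catalytic β subunit, was at 2376 ± 197 and 2537 ± 421 TPM. The phosphate carrier gave overlapping ratios to the same sum, from 0.0360 to 0.0533 in control and 0.0324 to 0.0445 after radiotherapy.

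The second translocase, Slc25a5 (ANT2), is known from proliferating and non-muscle cells. It was at 54.5, 38.6 and 26.3 TPM in control and 33.9, 26.1 and 61.1 TPM after radiotherapy, with no order by group (difference −0.01, 95% interval −0.85 to 0.83). Its highest values were in radiotherapy 3 and control 1. The 6 macrophage markers also summed highest there, to 279 TPM in control 1 and 152 TPM in radiotherapy 3 against 26.1 to 39.7 TPM elsewhere. So did the neutrophil (1617 and 672 TPM), fibroblast (175 and 132 TPM) and endothelial markers (95.5 and 109 TPM). The fibre, red blood cell, adipocyte, Schwann and smooth muscle marker sums had other orders. The part of any cell type in the Slc25a5 values was not tested. Slc25a4 exceeded Slc25a5 by 20.1 to 71.4 times within a library. The 2 genes are close paralogs, so reads they share may have been divided between them in ways the table does not show; the Slc25a5 pseudogene was at 0.07 to 0.21 TPM. Slc25a31, the germ cell translocase ANT4, was at 0.07 TPM or less.

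Slc25a36 and Slc25a33 both carry pyrimidine nucleotides, needed to copy and transcribe mitochondrial DNA, and their differences had opposite signs. Slc25a36 was at 14.5, 14.3 and 10.3 TPM in control and 15.0, 18.0 and 29.6 TPM after radiotherapy. It was the only tested member with all radiotherapy values above all controls, though radiotherapy 1 and control 1 were close and radiotherapy 3 set the mean (difference 0.60, SE 0.30, limma adjusted p = 0.977; 0.33 without radiotherapy 3). Slc25a33 was at 4.71, 19.3 and 16.3 TPM in control and 4.92, 7.51 and 6.40 TPM after radiotherapy. Control 1 lay just below the lowest radiotherapy library while the other controls lay above the highest, so the groups overlapped (difference −0.81, SE 0.45, limma adjusted p = 0.977; −1.38 without control 1 and −0.47 without control 2).

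The calcium-regulated carriers that exchange ATP-Mg for phosphate adjust the adenine nucleotide pool of the matrix. Slc25a25 had the widest span among the controls of any tested member. Its values were 43.3, 109 and 2.04 TPM in control and 13.6, 12.8 and 46.9 TPM after radiotherapy. The highest and lowest libraries of all were both controls, 53.5-fold apart, while the median tested member spanned 1.49-fold among controls. Its difference of −0.21 had an interval from −2.75 to 2.33 and became 0.87 without control 2 and −1.71 without control 3. Slc25a23 was at 7.14 ± 1.71 and 8.71 ± 1.60 TPM and Slc25a24 at 1.42 ± 0.417 and 1.55 ± 0.473 TPM.

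The phosphate carrier Slc25a3 brings in the phosphate for ATP synthesis and was the second most abundant member. It was at 498, 550 and 825 TPM in control and 611, 460 and 523 TPM after radiotherapy. Control 3 stood above the other 5 libraries, which overlapped (difference −0.21, 95% interval −0.76 to 0.35). Without control 3 the sign turned, to 0.011, as it did under quantile normalization.

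**Figure D3:**
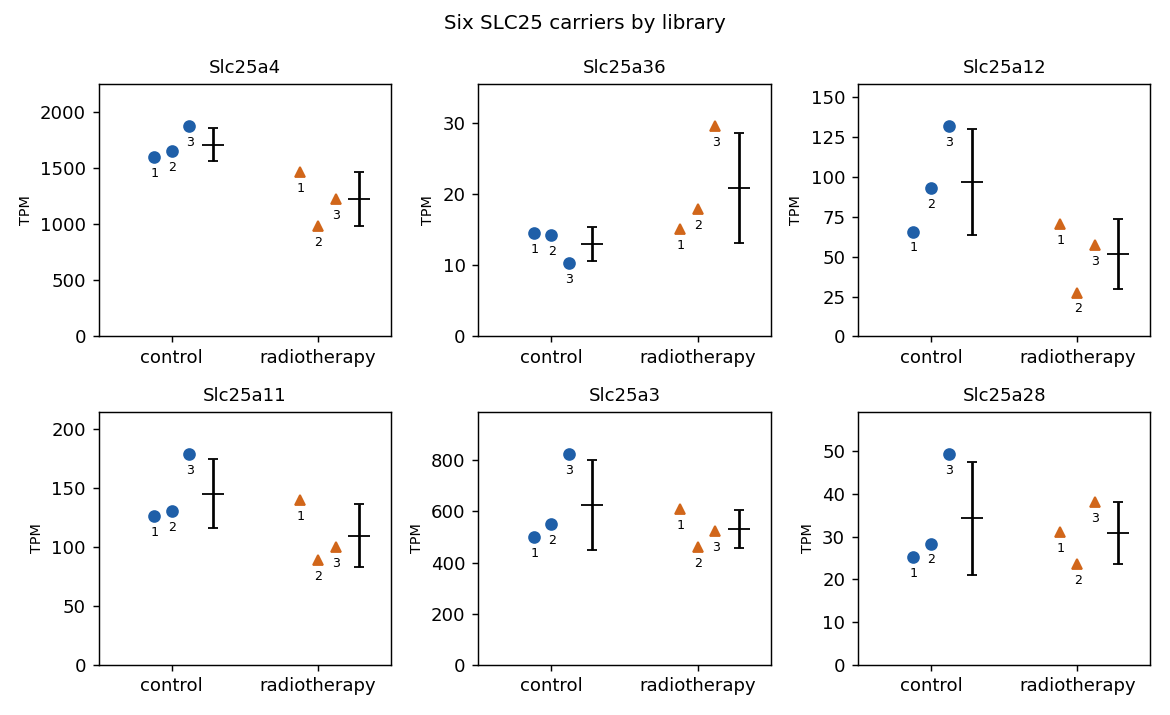
TPM of 6 SLC25 genes in each library (numbers are the replicate numbers of the labels), with the mean and SD of each group (n = 3) as a bar beside the points and axes from 0. The groups are apart for Slc25a4 and Slc25a36 and overlap for Slc25a12, Slc25a11, Slc25a3 and Slc25a28.

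The fatty acyl carrier Slc25a20 exchanges acylcarnitine for carnitine. It was at 26.1, 22.7 and 22.1 TPM in control and 16.9, 15.1 and 25.3 TPM after radiotherapy. In radiotherapy 1 and 2 it was below every control, and in radiotherapy 3 it was among them (difference −0.32, 95% interval −0.91 to 0.27; −0.53 without radiotherapy 3). Carnitine acetyltransferase, Crat, was at 120 and 90.2 TPM for the control and radiotherapy means, with overlap. The ratio of Slc25a20 to Cpt1b, the muscle enzyme that makes acylcarnitine, overlapped too, at 0.233 to 0.345 in control and 0.239 to 0.276 after radiotherapy. Of the 6 tested genes of the carnitine shuttle 4 were below 0 and 0 passed limma over all genes tested (0 also at an unadjusted p under 0.05).

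Of the carriers of amino acids and glutathione, Slc25a12 had the most negative difference in the family. It encodes the aspartate/glutamate carrier aralar, a calcium-regulated step of the malate-aspartate shuttle. Its level was 65.7, 93.3 and 132 TPM in control and 70.6, 27.5 and 57.1 TPM after radiotherapy. Radiotherapy 1 lay above control 1, so the groups overlapped (means 97.1 ± 33.3 and 51.7 ± 22.0 TPM, difference −0.94, SE 0.39, limma adjusted p = 0.977). The difference was −0.55 without radiotherapy 2 and −0.30 without both control 3 and radiotherapy 2. Its paralog Slc25a13 (citrin), the liver form, was at 0.27 TPM or less.

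The shuttle's other carrier, Slc25a11, exchanges oxoglutarate for malate. It was at 126, 130 and 179 TPM in control and 139, 88.9 and 99.99 TPM after radiotherapy. It too overlapped through radiotherapy 1 (difference −0.41, SE 0.26; −0.25 without control 3). The ratio of Slc25a12 to Slc25a11 was 0.520, 0.715 and 0.739 in control and 0.506, 0.309 and 0.571 after radiotherapy, so that too overlapped. The enzymes of the shuttle (Got1, Got2, Mdh1, Mdh2) gave 3 of 4 below 0 and 0 past limma (0 at an unadjusted p under 0.05), with Mdh2 at 613 and 563 TPM for the group means.

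Other amino acid and glutathione carriers overlapped between the groups. The glutathione carrier Slc25a39 was at 26.2, 19.7 and 19.2 TPM in control and 16.3, 14.4 and 23.7 TPM after radiotherapy. The glycine carrier Slc25a38, which feeds haem synthesis, was at 9.45, 10.6 and 14.0 TPM and then 8.23, 8.33 and 15.3 TPM. In both, radiotherapy 3 lay among or above the controls. Slc25a44, a carrier of branched-chain amino acids, was at 6.67 ± 0.569 and 5.86 ± 1.65 TPM, and of the 5 tested genes that break those amino acids down 2 were below 0 and 0 passed limma (0 at an unadjusted p under 0.05). The glutamate carrier Slc25a22, the basic amino acid carrier Slc25a29, the ornithine carrier Slc25a15 and the glutathione carrier Slc25a40 ranged from 0.63 to 5.01 TPM over all libraries. In this group of 11 genes 8 were tested and 5 were below 0.

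Iron enters the matrix through the mitoferrins, for haem and for iron-sulphur clusters. Slc25a28 (mitoferrin 2), the form of non-erythroid tissue, was at 25.1, 28.4 and 49.3 TPM in control and 31.0, 23.6 and 38.2 TPM after radiotherapy. Slc25a37 (mitoferrin 1), known from developing red cells, was at 3.79, 4.56 and 2.15 TPM in control and 2.51, 2.72 and 4.94 TPM after radiotherapy. Neither ordered the groups (95% intervals of the difference −0.82 to 0.60 and −0.72 to 0.65), and control 3 was highest for one and lowest for the other.

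The red blood cell markers, in contrast, did not overlap, with sums of 3352 to 7203 TPM in control and 930 to 1618 TPM after radiotherapy, while Slc25a37 overlapped. Several genes that use mitochondrial iron also had all radiotherapy values below all controls. They were 5 of 12 tested, Alas2, Alas1, Fech and Abcb10 among them (background 7.54% for this direction). None passed limma over all genes tested (3 at an unadjusted p under 0.05, background 3.82%). Alas2, the first enzyme of haem synthesis in red cells and itself on the red cell marker list, was at 10.0, 17.3 and 9.83 TPM in control and 3.61, 1.96 and 3.91 TPM after radiotherapy. Iscu, the scaffold of iron-sulphur clusters, was at 149 and 164 TPM for the group means. The part of red cells in these values was not tested. Fewer cells of a type and less RNA per cell cannot be told apart in such bulk samples.

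**Figure D4:**
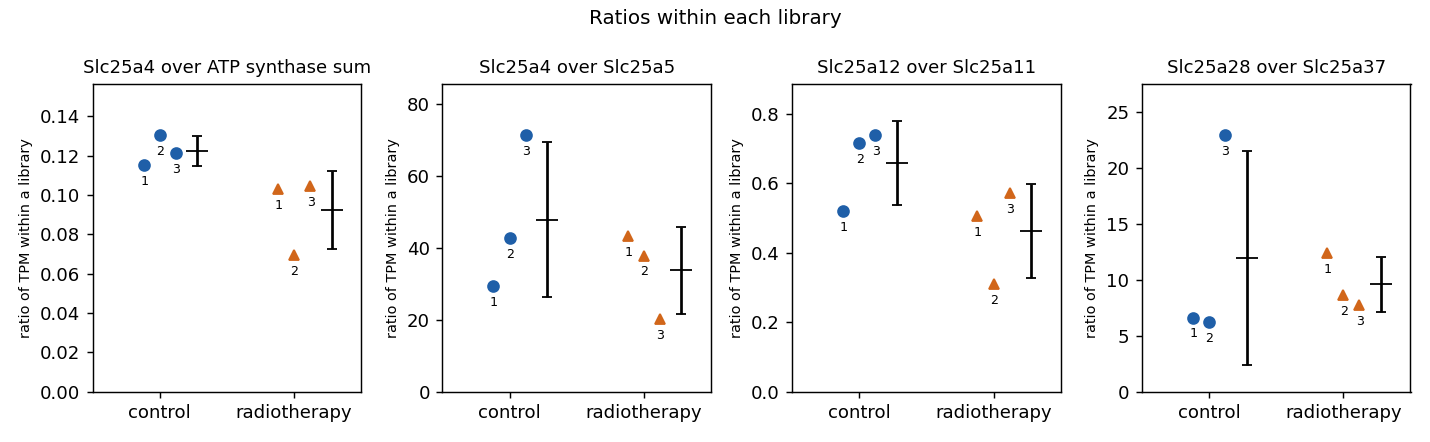
Ratios of TPM within each library for 4 pairs, with group means and SD (n = 3) and axes from 0. The ratio of Slc25a4 to the summed ATP synthase subunits separates the groups, while Slc25a4 to Slc25a5, Slc25a12 to Slc25a11 and Slc25a28 to Slc25a37 overlap.

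Carriers of cofactors gave 6 of 7 tested members below 0, where 67.9% of all genes were. Slc25a51, the carrier of NAD+, was at 15.6, 16.7 and 23.2 TPM in control and 13.2, 9.70 and 17.9 TPM after radiotherapy, with radiotherapy 3 among the controls (difference −0.44, SE 0.29; −0.27 without control 3). Slc25a26, which carries S-adenosylmethionine, was at 6.04, 6.29 and 5.62 TPM and then 4.90, 3.24 and 7.63 TPM, both extremes being radiotherapy libraries. The folate carrier Slc25a32, the coenzyme A carrier Slc25a42, the peroxisomal carrier Slc25a17 and Slc25a16 ranged from 1.35 to 6.44 TPM.

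Among the di- and tricarboxylate carriers other than Slc25a11, the citrate carrier Slc25a1, which supplies citrate for fatty acid synthesis, was at 3.62, 3.19 and 2.82 TPM in control and 7.26, 1.95 and 5.10 TPM after radiotherapy. The highest and the lowest value were both from radiotherapy. The summed level of the 5 adipocyte markers was also highest in radiotherapy 1, at 190 TPM, against 79.9 TPM in radiotherapy 2, 155 TPM in radiotherapy 3 and 81.6 to 142 TPM in control. Single markers differed in order. Adipoq was highest in radiotherapy 1 (88.7 TPM) and lowest in control 3 (1.98 TPM), and Cidec and Plin1 had the same extremes. Plin4 was instead lowest in radiotherapy 1 (47.6 TPM) and highest in radiotherapy 3 (124 TPM). Lep was at 0.16 TPM or less. The part of these markers in the Slc25a1 values was not tested. The dicarboxylate carrier Slc25a10 was at 2.13, 1.57 and 1.17 TPM in control and 2.08, 1.38 and 2.83 TPM after radiotherapy, with overlap.

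The remaining members have other or unsettled substrates. Slc25a46, an outer membrane protein of mitochondrial dynamics, was at 7.87, 9.79 and 9.61 TPM in control and 8.06, 5.96 and 9.34 TPM after radiotherapy. Slc25a34 was at 5.60, 4.68 and 4.15 TPM in control and 2.64, 5.61 and 10.3 TPM after radiotherapy, where both extremes were. Slc25a27 was at 1.98, 4.34 and 3.46 TPM and then 3.20, 3.34 and 3.32 TPM. All 3 overlapped between the groups. Slc25a30, Slc25a35, Slc25a45 and Slc25a14 ranged from 0.70 to 2.38 TPM. The 11 members that were not tested (Slc25a2, Slc25a13, Slc25a18, Slc25a21, Slc25a31, Slc25a41, Slc25a43, Slc25a47, Slc25a48, Slc25a53 and Slc25a54) reached 1.43 TPM at most, in Slc25a47, the liver carrier, in radiotherapy 3. Just inside the filter, Slc25a40 and Slc25a45 reached 1 TPM in 3 libraries.

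Relatives of the family that carry other symbols were compared as well. Ucp3, the uncoupling protein of skeletal muscle, was at 53.0, 76.7 and 17.0 TPM in control and 10.3, 12.7 and 27.6 TPM after radiotherapy, with control 3 among the latter. Mtch1 was lower without overlap (60.6 and 50.6 TPM), as 7.54% of all genes were. The gap was small, with control 2 at 56.51 TPM and radiotherapy 3 at 56.46 TPM. Mtch2 overlapped (133 and 115 TPM). Mtch1 and Mtch2 are outer membrane members of the family. All 4 tested relatives were below 0 and none passed limma over all genes tested, with 1 at an unadjusted p under 0.05. The outer membrane channel Vdac1 was at 532 and 393 TPM for the group means, and 4 of the 5 genes of its list, which includes the pyruvate carrier, were below 0. The calcium uniporter genes gave 5 of 5 below 0, with its subunit Smdt1 at 262, 232 and 257 TPM in control and 249.9, 204 and 244 TPM after radiotherapy. In both lists 0 genes passed limma, and 0 had an unadjusted p under 0.05. Of all genes tested, 67.9% were below 0 and 3.82% had an unadjusted p under 0.05 in limma. Muscle creatine kinase, Ckm, was also lower without overlap, where 7.54% of all genes were. It was at 17141, 17785 and 20324 TPM in control and 14281, 6713 and 14117 TPM after radiotherapy. The rest of its list, the phosphocreatine shuttle, overlapped. Of the 4 tested genes of that list 2 were below 0, with a median of 0.016. None passed limma over all genes tested (1 at an unadjusted p under 0.05).

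**Figure D5:**
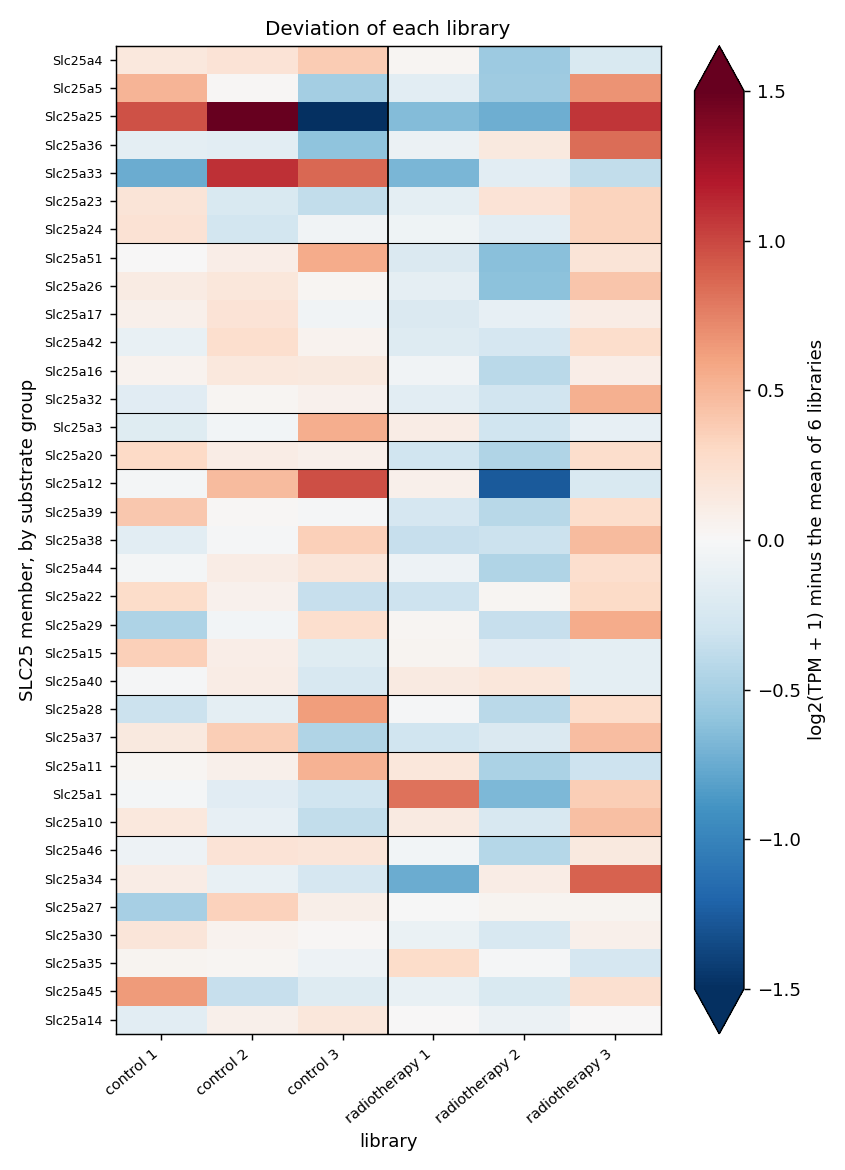
Deviation of each library from the mean of the 6 libraries, on the log2(TPM + 1) scale, for 35 tested SLC25 genes by substrate group; the line separates control from radiotherapy. Radiotherapy 2 is the lowest library for 17 of these genes and radiotherapy 3 the highest for 14, and colours are capped at 1.5.

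Single libraries took the extremes in many members. Radiotherapy 2 was the lowest library for 18 of the 36 tested members (50.0%, and 52.4% of all genes tested), and radiotherapy 3 was the highest for 14 (38.9%, and 35.8% of all genes). In 7 members control 3 was highest and radiotherapy 2 lowest, among them Slc25a4, Slc25a3, Slc25a11, Slc25a12, Slc25a28 and Slc25a51. They were 19.4% of the tested members, and 16.7% of all genes had the same pattern. They include the 4 most abundant genes of the family, so the family's summed level had the same extremes.

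The promoters of these 4 genes are shown because they were the most abundant of the members with the same extreme libraries. That of Slc25a36 is shown because it was the tested member higher without overlap. Each is the 250 bases before the transcription start, 5′ to 3′ in the direction of the gene, from RefSeq on build GRCm38.p6. The expression table names another build, mm9, and the genes were matched by symbol. Capitals mark letters of 4 motifs searched on both strands.
Slc25a4, chr8:46211063-46211312, minus strand: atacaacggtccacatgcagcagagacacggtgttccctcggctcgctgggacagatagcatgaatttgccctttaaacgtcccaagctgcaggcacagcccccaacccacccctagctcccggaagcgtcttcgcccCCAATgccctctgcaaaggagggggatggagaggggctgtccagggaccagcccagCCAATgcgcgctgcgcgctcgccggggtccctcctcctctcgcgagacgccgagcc
Slc25a3, chr10:91123968-91124217, minus strand: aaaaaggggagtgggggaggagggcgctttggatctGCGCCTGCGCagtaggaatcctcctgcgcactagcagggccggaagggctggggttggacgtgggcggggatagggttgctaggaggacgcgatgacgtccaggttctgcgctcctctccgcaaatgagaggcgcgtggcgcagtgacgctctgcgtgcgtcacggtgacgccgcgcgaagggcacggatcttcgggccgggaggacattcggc
Slc25a11, chr11:70647040-70647289, minus strand: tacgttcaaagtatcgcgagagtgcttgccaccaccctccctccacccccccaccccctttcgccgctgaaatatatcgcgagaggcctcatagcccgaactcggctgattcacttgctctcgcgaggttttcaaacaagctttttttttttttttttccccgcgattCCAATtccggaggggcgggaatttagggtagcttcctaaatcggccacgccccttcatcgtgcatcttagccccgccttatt
Slc25a12, chr2:71367756-71368005, minus strand: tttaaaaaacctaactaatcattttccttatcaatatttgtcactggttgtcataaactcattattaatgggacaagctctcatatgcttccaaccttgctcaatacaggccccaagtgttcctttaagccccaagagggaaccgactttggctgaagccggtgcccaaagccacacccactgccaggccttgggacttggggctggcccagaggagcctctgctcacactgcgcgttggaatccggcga
Slc25a36, chr9:97111042-97111291, minus strand: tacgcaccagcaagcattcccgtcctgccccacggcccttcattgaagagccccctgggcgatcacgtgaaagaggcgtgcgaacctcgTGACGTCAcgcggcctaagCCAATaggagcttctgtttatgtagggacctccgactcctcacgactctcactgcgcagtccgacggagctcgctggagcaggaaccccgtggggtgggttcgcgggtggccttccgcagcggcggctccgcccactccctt

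The motifs were GCGCA then any base then GCGC for NRF1, a factor of nuclear genes for mitochondria, AAGGTCA for the oestrogen-related receptors, CCAAT, the CCAAT box, and TGACGTCA, the cyclic AMP response element. Over all 32851 RefSeq promoters of this length they occurred in 3.74%, 4.08%, 33.9% and 1.55%. Of the 47 members 36 matched the promoter table, with 46 start sites, of which 4.35%, 2.17%, 45.7% and 4.35% held them. The NRF1 letters were in Slc25a3, CCAAT was in Slc25a4, Slc25a11 and Slc25a36, the cyclic AMP element was in Slc25a36, and no motif was in the window shown for Slc25a12. The 4 most abundant members, which shared their extreme libraries, therefore had no motif of these 4 in common in the windows shown.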

How the data were processed

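Total RNA of 3 control and 3 radiotherapy muscles was made into TruSeq libraries, per the labels, which also give the groups. Values were used as TPM, the unit the authors deposited in 1 table, each column summing to 1000000 within 1. HISAT2, StringTie and RSEM with build mm9 are named in the submitters' processing notes; their versions, roles and the annotation were not given in the sources used. Strandedness is not stated, so overlapping genes cannot be separated. Depth is unknown, so no counting interval is given.

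Genes at 1 TPM or more in at least 3 of 6 libraries were tested with limma 3.58.1 in R 4.3.3 on log2(TPM + 1), with a pseudocount of 1, a mean-variance trend, two-sided, group as the only term, and Benjamini-Hochberg adjustment over all 11375 genes at 0.05. The fit was also run on simulated data with noise drawn independently for each gene. Such data hold no shifts of whole libraries, so they cannot show how the fit handles those. Some genes counted in the totals are not reported here by name or drawn. Of the members named, those with library values were the iron, fatty acyl and phosphate carriers, the 3 highest of each other substrate group by mean TPM, those without overlap and the 5 of smallest p. Of each pathway list the most abundant gene, the gene of smallest p and those without overlap were eligible to be named; Cpt1b entered only a ratio. Members, substrate groups and gene lists were chosen with earlier results of these data known. Library pairs shared at most 3.35% equal nonzero values. Alternatives were another pseudocount, other filters, 3 other scalings, limma without trend or robust, a replicate block and each library left out. Promoters came from RefSeq. Figures were drawn with matplotlib 3.10.9.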

Additional observations from a re-analysis of the deposited data

How the results depend on the processing

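No SLC25 member passed limma under any of the 16 alternatives run, and the median difference of the members stayed between −0.26 (without radiotherapy 3) and 0.00 (without radiotherapy 2). The median of all genes moved from −0.11 to −0.00 with median-of-ratios scaling, −0.01 with quantile normalization and −0.02 without the most abundant and mitochondrial genes, and the members' median moved with it, to −0.00, −0.03 and −0.03; the share of members below 0 was then 52.8% against 66.7%, and that of all genes 50.2%, 52.3% and 53.8%. When each library was left out in turn, members without overlap between groups numbered 3 to 14 (8.33% to 38.9%, next to 12.3% to 33.1% of all genes in the same fits), and all genes called numbered 0 to 1. With control 3 and radiotherapy 2 both left out, an alternative chosen after seeing the data, these were 7 members (19.4%, next to 23.1% of all genes) and 1 gene. The single genes called were Gm55635 without control 1, Gm24497 without radiotherapy 1 and Gm26447 without control 3 and radiotherapy 2. The sign of some small differences turned. With median-of-ratios scaling it was 0.13 for Slc25a5, 0.030 for Slc25a28 and 0.063 for Slc25a37. With quantile normalization it was 0.00236 for Slc25a3, 0.17 for Slc25a5, 0.087 for Slc25a28 and 0.029 for Slc25a37. Without the most abundant and mitochondrial genes it was 0.10 for Slc25a5, 0.00369 for Slc25a28 and 0.053 for Slc25a37. Leaving out 1 library gave −0.35 to 0.011 for Slc25a3, −0.35 to 0.25 for Slc25a5, −1.71 to 0.87 for Slc25a25, −0.29 to 0.18 for Slc25a28 and −0.28 to 0.13 for Slc25a37. Without control 3 and radiotherapy 2 together Slc25a3 was at 0.11 and Slc25a28 at 0.36. The cause of these turns was not tested. Whether the replicate numbers pair the samples is not stated in the labels. Deviations of same-numbered libraries correlated at −0.0593, 0.0242 and −0.110, and those of other pairs at −0.125 to 0.171. Such correlations, over 3 libraries centred in each group, cannot show whether samples were paired. With the replicate block 0 genes and 0 members were called by limma. At an unadjusted p under 0.05 there were 3 of 36 members, next to 403 of all 11375 genes.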
